A study of Arabidopsis thaliana with 7 samples.

Results

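The cytochrome P450 genes described here are the probe sets whose only gene symbol is CYP followed by 2 or 3 digits, a letter and a number. The rule found 22 probe sets for 22 genes among the 22746 probe sets that are not array controls. Of these 22, 6 had at least 1 of the 7 arrays above 248.1 in the intensity units of the file, the median of all values, and these 6 were the members that could be tested. Expression was profiled in Arabidopsis flowers of stages 1 to 14 on 7 single-colour Affymetrix arrays, 1 array for each group, from plants grown for 6 weeks under long days. The groups were arf6 arf8 double mutants sprayed with indole-3-acetic acid (IAA, the main natural auxin), arf6 arf8 untreated, arf6/arf6 ARF8/arf8 with IAA, arf6/arf6 ARF8/arf8 untreated, and wild-type Columbia with IAA, with a mock spray and untreated. ARF6 and ARF8 encode auxin response factors, transcription factors that act in flower maturation. In arf6/arf6 ARF8/arf8, ARF8 is the heterozygous gene by the sample labels and ARF6 by the series text. The IAA dose is 10 µM in the sample labels, and the series text writes 10 mM. Sprays were made up in 1% methanol with 0.05% Tween-20, and the series text puts the harvest 30 minutes after them. ARF6 and ARF8 lay on no named probe set, so the genotypes are those of the labels and were not checked against the mutated genes. Untreated plants received no spray and wild type alone has a mock array, so a difference of IAA from untreated contains the spray as well as the auxin.

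Cytochrome P450 enzymes are haem proteins that bind to membranes and insert an oxygen atom into small molecules, with electrons passed on from a reductase. Plants hold large P450 families that build or break down hormones, phenolics, wall lipids, terpenes and defence compounds. The CYP71 family is among the most expanded of them, and its genes often stand side by side on a chromosome.

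Of the 22 members, 18 belong to the CYP71B subfamily, and CYP51G, CYP78A, CYP79A and CYP84A have 1 member each. The RefSeq gene table for this species holds 225 genes with a symbol of this form, 35 of them CYP71B, so the named probe sets are a small and uneven share of the family. A further 6 probe sets with CYP in their symbol were left out by the rule, of which 2 were cyclophilins, 2 carried several genes and 2 had symbols of another form. Of the P450 genes listed by role, 6 of 110 entries lay on a named probe set, spread over 5 of 12 lists, and the lists for brassinosteroids, gibberellin, abscisic acid, jasmonate, cytokinin with carotenoids, and wall lipids had none. No entry of the 13 on the list of redox partners, the reductases and cytochrome b5 proteins that feed electrons to P450 enzymes, was on a named probe set. A role list therefore rests on at most 2 genes here, and each member is described on its own.

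Array medians of the intensity ran from 241.0 to 261.5. The low end was raised on the wild-type mock array, where the median of 27 bacterial control probe sets was 28.1, and next on the arf6 arf8 IAA array at 15.9, against 5.2 to 11.1 on the other arrays. None of the 9 fixed flower identity markers and none of the 5 green tissue markers lay on a named probe set. Floral cell types were represented by 2 of 8 tapetum, 3 of 7 pollen, 1 of 6 nectary and 2 of 4 scent markers, none at 0, and all but 1 of these 8 genes passed the filter. Of the 4 root markers, EXPA7 stayed between 8.2 and 55.4 and EXPA18 between 56.3 and 105.6.

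Most members were dim. Of the 16 that did not pass the filter, the highest value of the 7 arrays lay between 22.9 and 184.7. CYP71B23, just outside the filter, had its highest value at 184.7, and CYP71B34, just inside, at 288.8. CYP71B21, CYP71B25, CYP71B29 and CYP79A2 never exceeded 64.9, the 25th percentile of all values, which served as the floor below which values were not ordered. CYP71B35 exceeded it on every array, and the other 11 on 1 to 6 arrays. The file used here carries no detection calls, so a dim value cannot be read as a transcript present or absent.

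**Figure D1:**
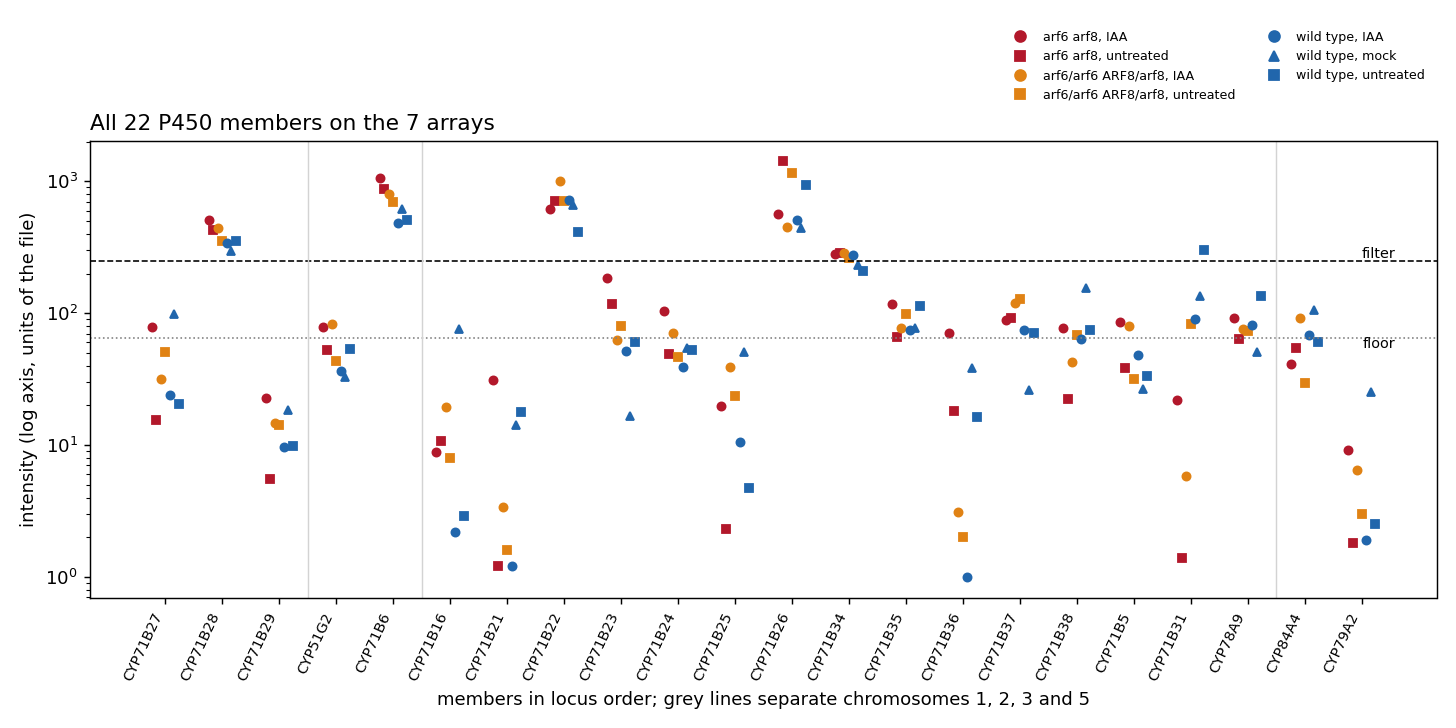
Intensity on a log axis of all 22 P450 members, in locus order, with 1 symbol for each of the 7 arrays; the dashed line is the filter at 248.1 and the dotted line the floor at 64.9. CYP71B6, CYP71B22, CYP71B26 and CYP71B28 lie above the filter on every array, CYP71B34 straddles it, CYP71B31 exceeds it only on the wild-type untreated array, and 16 members lie wholly below it.

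The dim members were highest on the arrays with the raised low end. Of the 16, 7 were highest on the arf6 arf8 IAA array and 6 on the wild-type mock array. Over all 9725 probe sets below the filter, 22.1% were highest on the arf6 arf8 IAA array and 44.5% on the wild-type mock array. CYP71B16 read 8.9 and 10.7 in arf6 arf8 (IAA, untreated), 19.4 and 8.0 in arf6/arf6 ARF8/arf8, and 2.2, 76.4 and 2.9 in wild type (IAA, mock, untreated). Its mock value stands alone, and the part of the raised low end in it was not tested.

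Among the dim members with a known role, CYP79A2, which turns phenylalanine into an oxime on the way to benzylglucosinolate, read between 1.8 and 25.3, with the highest value on the mock array. CYP84A4, an enzyme of arabidopyrone synthesis, read between 29.8 and 105.8, again highest on the mock array. CYP78A9, a promoter of fruit and seed growth, read 92.7 and 64.2 in arf6 arf8 (IAA, untreated), 76.0 and 73.6 in arf6/arf6 ARF8/arf8, and 81.7, 50.5 and 134.0 in wild type (IAA, mock, untreated). The wild-type groups lay on both sides of all mutant values for this gene. CYP51G2, a relative of the sterol 14-demethylases that RefSeq lists as a transcribed pseudogene, read between 32.6 and 82.3, and CYP71B27, also a transcribed pseudogene in that table, between 15.5 and 99.3. CYP71B23 read 184.7 and 116.5 in arf6 arf8 (IAA, untreated), 63.1 and 80.0 in arf6/arf6 ARF8/arf8, and 51.4, 16.6 and 60.6 in wild type (IAA, mock, untreated). Both arf6 arf8 values lay above the wild-type ones, but the gene did not reach the filter. When all 22746 probe sets were fitted without a filter, its log2 difference of arf6 arf8 from wild type was 1.18 ± 0.32 (SE) and did not pass (limma, adjusted p = 0.239). Only 2 of the 22746 probe sets passed in that comparison, so not passing there says little about the gene.

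The 6 tested members were all CYP71B genes. Values below the floor were set to it, taken to log2 and fitted over all 13021 probe sets that passed the filter with a linear model of genotype and treatment (limma), and p-values were adjusted over all of them with a threshold of 0.05. Since no group has a repeat array, the p-values measure how well the treatments agree on a genotype difference, or the genotypes on a treatment difference. From the highest to the lowest array, floored values spanned 4.64-fold for CYP71B31, 3.22-fold for CYP71B26, 2.41-fold for CYP71B22, 2.19-fold for CYP71B6, 1.72-fold for CYP71B28 and 1.39-fold for CYP71B34. Over all tested probe sets the median span was 1.56-fold, and 98.1% had a smaller span than CYP71B31 but only 28.9% a smaller one than CYP71B34.

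**Figure D2:**
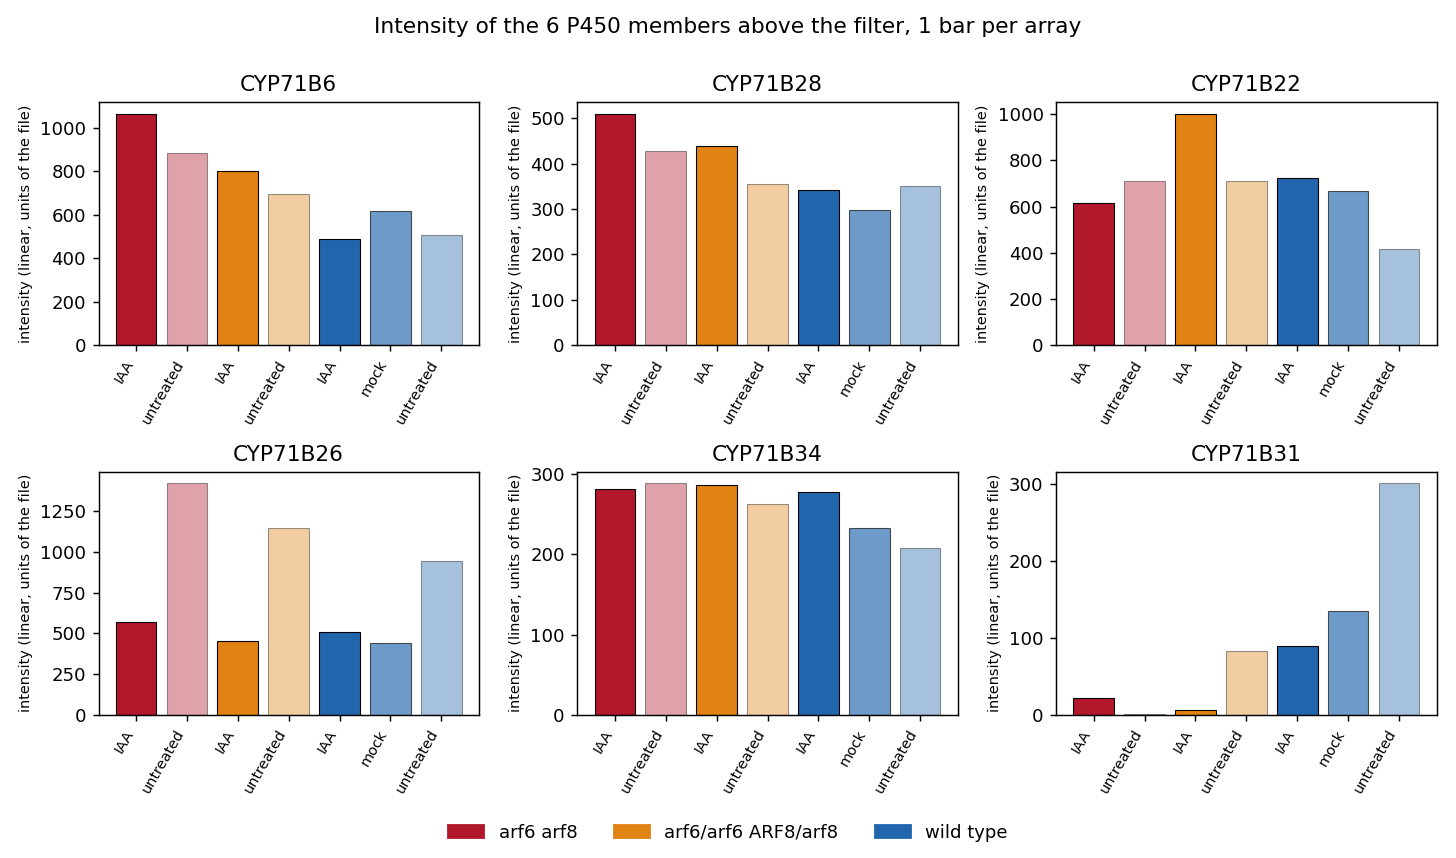
Intensity on a linear axis of the 6 tested members, 1 bar for each array, coloured by genotype and paler for mock and untreated. CYP71B6 is higher on all 4 mutant arrays than on any wild-type array, CYP71B26 is lower on all 4 sprayed arrays (440.7 to 567.5) than on any untreated array (944.4 to 1420.9), and CYP71B31 is lower on all 4 mutant arrays than on any wild-type array.

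The arf6 arf8 double mutant was set against wild type to see which transcripts differ when both auxin response factor genes are mutant. One member of the 6, CYP71B6, rose, and none fell past the threshold. Over all probe sets 17.1% passed in this comparison, 9.14% higher and 7.96% lower, so a count of 1 of 6 is close to the rate of all transcripts. The median log2 difference of the 6 was 0.32, against 0.02 over all probe sets tested. These are related genes read on the same arrays, so this median is a description and no test of the family. CYP71B31, the 1 that was lower, passed the filter only through a high wild-type value.

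CYP71B6 (locus AT2G24180) encodes an enzyme that acts on indole-3-acetonitrile, an indole metabolite, and yields indole-3-carboxylic acid. It read 1065.5 and 882.8 in arf6 arf8 (IAA, untreated), 803.3 and 695.4 in arf6/arf6 ARF8/arf8, and 486.9, 615.5 and 505.9 in wild type (IAA, mock, untreated). All 4 mutant arrays lay above all 3 wild-type arrays. CYP71B6 was 1.95-fold higher in arf6 arf8 than in wild type, a log2 difference of 0.97 ± 0.14 (SE; limma, adjusted p = 0.0071), and 1.51-fold higher in arf6/arf6 ARF8/arf8, at 0.59 ± 0.14, which did not pass (limma, adjusted p = 0.0851). The arf6 arf8 arrays also exceeded the matching arf6/arf6 ARF8/arf8 arrays, by 1.33-fold with IAA and 1.27-fold untreated, and this difference did not pass either (log2 0.38, 95% interval 0.03 to 0.72; limma, adjusted p = 0.314). Without the arf6 arf8 IAA array, which leaves that genotype 1 array, the CYP71B6 log2 difference from wild type was 0.87 and the call was lost. When dim probe sets were kept its adjusted p was 0.119 (limma), in a fit where only 2 of 22746 probe sets passed in this comparison. That fit therefore says little about a single gene.

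CYP71B28 (AT1G13090) had the same order of genotypes at a smaller size. It read 510.2 and 426.9 in arf6 arf8 (IAA, untreated), 439.5 and 354.6 in arf6/arf6 ARF8/arf8, and 341.6, 297.1 and 350.4 in wild type (IAA, mock, untreated). The untreated arf6/arf6 ARF8/arf8 value lay just above the wild-type one, so the groups are separated there by little. The log2 difference of arf6 arf8 from wild type was 0.43 ± 0.15 (SE; limma, adjusted p = 0.0883). Arrays ranked arf6 arf8 over arf6/arf6 ARF8/arf8 over wild type, both with IAA and untreated, for CYP71B6 and CYP71B28, 2 of the 6 members, and for 13.2% of all tested probe sets. All 4 mutant arrays lay above all 3 wild-type arrays for the same 2 members and for 14.4% of all tested probe sets, and both arf6/arf6 ARF8/arf8 arrays did so for these 2 and for 21.2%.

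CYP71B31 (AT3G53300), a flower P450 known to oxidise the scent alcohol linalool, was low in the mutants. It read 22.1 and 1.4 in arf6 arf8 (IAA, untreated), 5.8 and 82.8 in arf6/arf6 ARF8/arf8, and 89.7, 135.2 and 300.9 in wild type (IAA, mock, untreated). All 4 mutant arrays lay below all 3 wild-type arrays, as they did for 11.0% of all tested probe sets (19.7% for the arf6 arf8 arrays alone and 15.9% for the arf6/arf6 ARF8/arf8 arrays alone), but untreated arf6/arf6 ARF8/arf8 and IAA-sprayed wild type were close. Among untreated arrays the arf6 arf8 value was at least 4.64-fold lower than in wild type, and among IAA arrays at least 1.38-fold lower, since both arf6 arf8 values were below the floor. The fitted log2 difference was -1.34 ± 0.37 in arf6 arf8 and -1.16 ± 0.37 in arf6/arf6 ARF8/arf8 (SE), and neither passed (limma, adjusted p = 0.0514 and 0.146). CYP71B31 passed the filter through 1 array alone, wild-type untreated at 300.9, so its place among the tested members already required a high wild-type value, and its order and differences are given as a description. In arf6 arf8 against wild type its log2 difference was -3.18 on lowering the floor to the 10th percentile and -1.42 after quantile normalization. It was -0.47 on raising the floor to the 40th percentile and -0.56 without the wild-type untreated array. In arf6/arf6 ARF8/arf8 the difference was -0.38 without the wild-type untreated array, -0.47 with the raised floor and -0.90 without its own untreated array. Without the wild-type IAA array limma gave -2.12 in arf6 arf8 and -1.95 in arf6/arf6 ARF8/arf8. The wild-type level then rests on the untreated array that the filter required to be high, so these larger values are no test. Leaving out an arf6/arf6 ARF8/arf8 array cannot change the arf6 arf8 difference in this model, so its value of -1.34 there is no test.

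Summed markers of floral cell types lay in separate ranges in the 3 genotypes, though some single markers did not. The summed intensity of the 2 scent markers, the terpene synthase genes TPS11 and TPS24, was 332.7 to 454.5 in arf6 arf8, 901.5 to 1153.3 in arf6/arf6 ARF8/arf8 and 2500.3 to 2737.3 in wild type. SWEET9, the nectary sucrose transporter, read 82.6 to 83.5, 409.6 to 518.9 and 1460.6 to 1781.9 in these genotypes. The 3 pollen markers summed to 620.6 to 768.4, 920.3 to 969.2 and 1318.2 to 1797.0, and the 2 tapetum markers to 1786.8 to 2332.5, 1316.5 to 1775.9 and 676.0 to 913.5. In arf6 arf8 against wild type every tested marker passed (limma, adjusted p at most 0.0275). In arf6/arf6 ARF8/arf8 the scent markers and SWEET9 passed, but the tested pollen and tapetum markers did not (limma, adjusted p = 0.0612 to 0.148). Between the mutants only TPS11 and SWEET9 passed. The pollen marker ANX1, below the filter, read 77.0 on the wild-type mock array, below every mutant array. As single genes, the tapetum markers A9 and AMS and the pollen markers ANX1 and ANX2 overlapped between the mutants. A9 read 1399.0 and 2011.4 in arf6 arf8 (IAA, untreated), and 1024.3 and 1401.3 in arf6/arf6 ARF8/arf8. AMS read 387.8 and 321.1, and 292.2 and 374.6. The order of the mutants in the tapetum sums therefore held for neither gene alone. The part of these cell types in the values of CYP71B6, CYP71B28 and CYP71B31 was not tested, and in whole flowers fewer cells of a type and less RNA per cell cannot be told apart.

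The remaining tested members did not pass in any comparison of genotypes. CYP71B22 (AT3G26200) read 616.0 and 710.6 in arf6 arf8 (IAA, untreated), 1003.1 and 710.6 in arf6/arf6 ARF8/arf8, and 722.3, 667.0 and 415.8 in wild type (IAA, mock, untreated). Untreated, both mutants lay at the same value above wild type, while with IAA the arf6 arf8 array was the lowest. Its fitted log2 difference was 0.62 ± 0.23 in arf6/arf6 ARF8/arf8 against wild type and 0.27 ± 0.23 in arf6 arf8 (SE; limma, adjusted p = 0.199 and 0.454). CYP71B34 (AT3G26300) read 281.4 and 288.8 in arf6 arf8 (IAA, untreated), 286.7 and 262.7 in arf6/arf6 ARF8/arf8, and 277.9, 233.4 and 208.0 in wild type (IAA, mock, untreated). It was the steadiest of the 6, with both arf6 arf8 arrays above all wild-type arrays by little (log2 0.25, 95% interval -0.12 to 0.61; limma, adjusted p = 0.31). That order held for CYP71B6, CYP71B28 and CYP71B34, 3 of the 6 members, and for 25% of all tested probe sets. For CYP71B26 the arf6 arf8 difference from wild type was 0.37 ± 0.16 (SE; limma, adjusted p = 0.153).

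In arf6/arf6 ARF8/arf8 against wild type none of the 6 members passed, where 2.76% of all probe sets did (1.14% higher, 1.62% lower). An unadjusted p under 0.05 was found for 3 (limma), and for 20.4% of all probe sets. The 3 include CYP71B31, which passed the filter only through a high wild-type value, so this count is no test of the members. In arf6 arf8 against arf6/arf6 ARF8/arf8 none passed, where 1.25% of all probe sets did (0.3% higher, 0.952% lower), and CYP71B6 alone of the 6 had an unadjusted p under 0.05 (limma), as had 14.3% of all probe sets. The 95% intervals of the log2 difference between the mutants ran from -0.31 to 0.42 for CYP71B34, -0.91 to 0.20 for CYP71B22, -0.06 to 0.70 for CYP71B26, -0.11 to 0.59 for CYP71B28 and -1.06 to 0.71 for CYP71B31. The comparisons with wild type share the wild-type arrays.

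**Figure D3:**
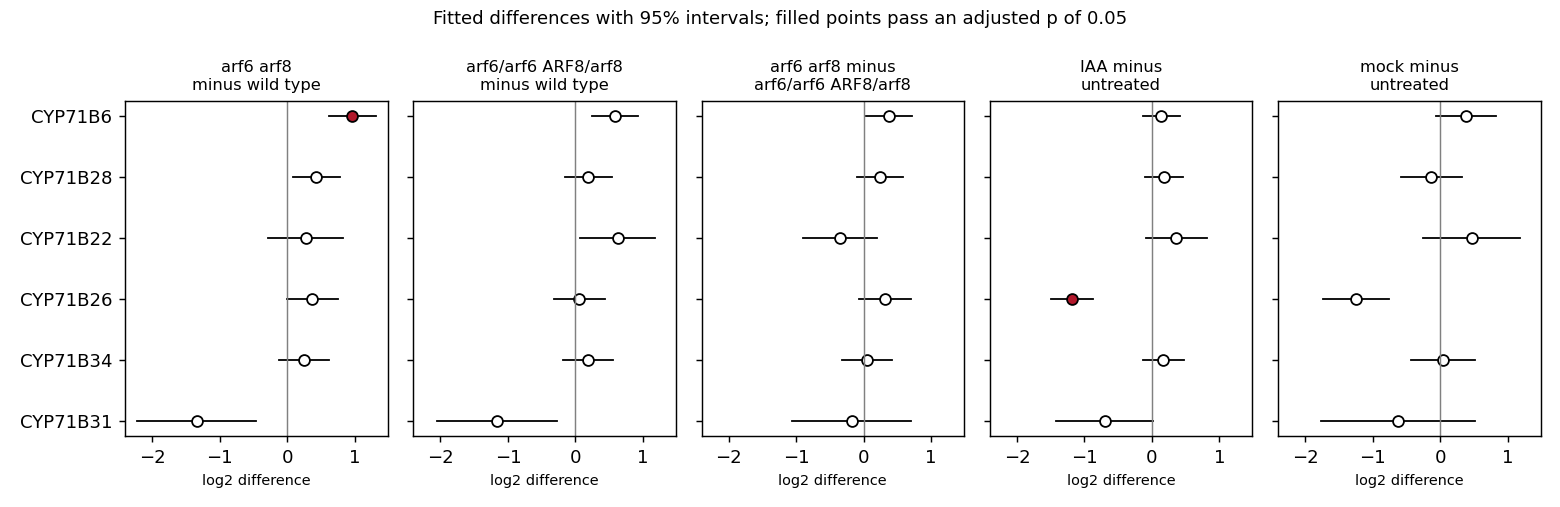
Fitted log2 differences of the 6 tested members in 5 comparisons, with 95% intervals from the limma fit over all probe sets; filled points pass an adjusted p of 0.05. CYP71B6 passes in arf6 arf8 against wild type (0.97) and CYP71B26 in IAA against untreated (-1.19), and the intervals of CYP71B31 are the widest.

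IAA against untreated was compared over the 3 genotypes to ask which transcripts responded within 30 minutes. CYP71B26 (AT3G26290) fell, and none of the other 5 members passed. Over all probe sets 1.08% passed, 0.737% higher and 0.346% lower. CYP71B26 read 567.5 with IAA and 1420.9 untreated in arf6 arf8, 452.1 and 1148.5 in arf6/arf6 ARF8/arf8, and 508.2 and 944.4 in wild type. The IAA value was lower in each genotype, as for 20.8% of all tested probe sets, and the IAA arrays lay closer together than the untreated arrays. The fitted fall was 2.28-fold, a log2 difference of -1.19 ± 0.13 (SE; limma, adjusted p = 0.0153), and the ratios of single arrays were -1.32 in arf6 arf8, -1.35 in arf6/arf6 ARF8/arf8 and -0.89 in wild type on the log2 scale. Only 0.3%, 0.1% and 0.4% of all tested probe sets had a lower ratio in these pairs.

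The mock spray gave a fall of similar size in wild type. CYP71B26 read 440.7 on the mock array, against 944.4 untreated, so the mock value was below the IAA value of 508.2. The fitted log2 difference of mock from untreated was -1.25 ± 0.21 (SE; limma, adjusted p = 0.057), and that of IAA from mock was 0.06, with a 95% interval from -0.43 to 0.55 (limma, adjusted p = 0.975). All 4 sprayed arrays lay between 440.7 and 567.5 and all 3 untreated arrays between 944.4 and 1420.9, an order found for CYP71B26 alone among the 6 and for 4.78% of all tested probe sets. The opposite order, all sprayed arrays above all untreated ones, was found for no member and for 3.5% of all tested probe sets, and IAA above untreated in all 3 genotypes for no member and for 19.4%. With mock and IAA as 1 spray term, a model chosen after the data were seen, the log2 difference was -1.20 (limma, adjusted p = 0.019). The IAA call was lost without either arf6 arf8 array (log2 -1.12), which leaves that genotype 1 array, so the loss says little about the gene. With mock and untreated as 1 control the call was lost too (log2 -0.94, limma, adjusted p = 0.569). Only 2 of 13021 probe sets passed for IAA in that fit. The call was also lost with no filter (limma, adjusted p = 0.294), a fit in which 0 of 22746 probe sets passed for IAA. The mock difference passed with an intensity trend (limma, adjusted p = 0.039), without wild-type IAA (0.044) and without wild-type untreated (0.0242). In the last fit the untreated level of wild type is inferred from its IAA array and the mutants. It did not pass with the floor lowered (0.0645) or raised (0.153), the filter raised (0.0853), quantile normalization (0.0525) or no filter (0.17). The call was made without either arf6/arf6 ARF8/arf8 array (log2 -1.207), but not without either arf6 arf8 array (log2 -1.212).

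CYP71B31 was also lower on the sprayed wild-type arrays. It read 89.7 with IAA and 135.2 with mock, against 300.9 untreated, which gave log2 ratios of -1.75 and -1.15. The untreated array is the one through which the gene passed the filter, so a lower value on the sprayed arrays was fixed by that choice and is no test. In both mutants at least 1 array of each pair was below the floor, so their ratios carry little: the floored log2 ratio was 0 in arf6 arf8 and -0.35 in arf6/arf6 ARF8/arf8. The fitted IAA difference was -0.70 ± 0.30 (SE; limma, adjusted p = 0.329) and the mock difference -0.63 ± 0.48 (adjusted p = 0.559). Without the wild-type IAA array or without the wild-type untreated array the IAA difference was -0.18 (limma, adjusted p = 0.635). The mock difference was -1.15 without the wild-type IAA array (limma, adjusted p = 0.0454) and 0.42 without the wild-type untreated array (adjusted p = 0.55). In the latter fit mock is set against an untreated level inferred from the wild-type IAA array and the mutants.

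CYP71B22 moved the other way in wild type. It read 722.3 with IAA and 667.0 with mock, against 415.8 untreated, a 1.74-fold and a 1.60-fold higher value. In arf6/arf6 ARF8/arf8 the IAA value was 1.41-fold higher than untreated, and in arf6 arf8 it was 0.867 of untreated. The fitted differences were 0.36 ± 0.19 for IAA and 0.46 ± 0.30 for mock (SE; limma, adjusted p = 0.409 and 0.492). Without single arrays the IAA difference ran from 0.146 to 0.647, and none passed. The mock difference ran from 0.031, without wild-type untreated, to 0.682, without wild-type IAA, and none passed either. The value of 0.031 sets mock against an untreated level inferred from the wild-type IAA array and the mutants. For CYP71B6, CYP71B28 and CYP71B34 the fitted IAA differences were between 0.14 and 0.18, with 95% intervals within -0.14 to 0.47.

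**Figure D4:**
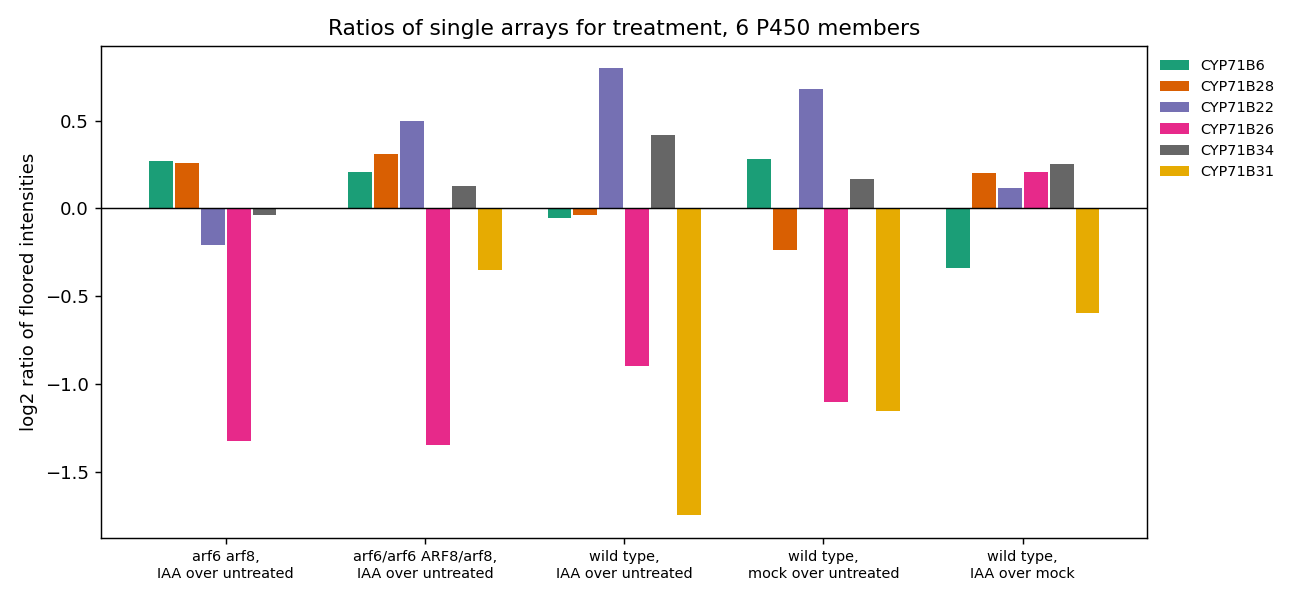
Log2 ratios of floored intensities between single arrays for the 6 tested members, with 1 cluster of bars for each pair of arrays. CYP71B26 is lower with IAA in all 3 genotypes (-1.32, -1.35 and -0.89) and with mock in wild type (-1.10), and its ratio of IAA over mock is 0.21; CYP71B31 has a ratio of 0 in arf6 arf8 because both arrays are below the floor.

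For mock against untreated in wild type none of the 6 members passed, where 0.753% of all probe sets did (0.438% higher, 0.315% lower), and CYP71B26 alone of the 6 had an unadjusted p under 0.05 (limma), as had 17% of all probe sets. For IAA against mock none passed, where 0.177% of all probe sets did (0.123% higher, 0.0538% lower), and none had an unadjusted p under 0.05 (limma), against 10.6% of all probe sets. The mock array has no repeat, and its p-values borrow their spread from the other 6.

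Of the 22 members, 11 stand in 1 run. The run lies on chromosome 3, where the genes from CYP71B16 to CYP71B37 follow each other with at most 4 other protein-coding genes between neighbours, by the gene order of the RefSeq assembly TAIR10.1. CYP71B22, CYP71B26 and CYP71B34 are the members of the run that passed the filter, and the other 8 stayed below it. CYP71B26 and CYP71B34 are direct neighbours, with no protein-coding gene between them. The arrays of CYP71B26 spanned 3.22-fold with the sprayed ones low, while those of CYP71B34 spanned 1.39-fold and its IAA over untreated ratios were -0.04 in arf6 arf8, 0.13 in arf6/arf6 ARF8/arf8 and 0.42 in wild type on the log2 scale. Past CYP71B34 follow CYP71B35, CYP71B36 and CYP71B37, again with no protein-coding gene between them, at no more than 116.7, 70.7 and 127.4 on any array. CYP71B22 lies between CYP71B21, which never exceeded 31.4, and CYP71B23. Members of the run are related in sequence, and how far their probes share targets was not tested. On chromosome 1 CYP71B28 is the direct neighbour of CYP71B29, which never exceeded 22.9, and on chromosome 3 CYP71B31 stands 2 protein-coding genes from CYP71B5, which read between 26.8 and 86.5. CYP71B24, in the run, was highest at 103.8 on the arf6 arf8 IAA array, and CYP71B38, outside it, at 155.5 on the wild-type mock array.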

How the data were processed

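Labelled cRNA from total RNA of flowers was hybridised to 7 arrays, 1 for each group. The deposited values are intensity signals on a linear scale, for which the submitters' processing notes list MAS5. They had a 2% trimmed mean of 500 on each array, so the authors' scaling was kept. Detection calls were not used here. Genes come from the platform annotation of 2016, updated through the RefSeq table of TAIR10.1, which matched 22 of 22 members and changed no symbol; it was used for names and neighbours only.

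Intensities were floored at the 25th percentile (64.9), taken to log2 and kept where the highest array exceeded the 50th percentile (248.1). Genotype and treatment entered 1 additive limma model (version 3.58.1, R 4.3.3), with 2 residual and 4.945 prior degrees of freedom. P-values were adjusted by Benjamini-Hochberg over 13021 probe sets. Adding a separate IAA response for arf6 arf8 left 1 residual degree of freedom. Precision is limited by the number of arrays. Alternatives were other floors and filters, quantile normalization, an intensity trend, other controls, leaving out each array and, chosen after seeing the data, mock and IAA as 1 spray term. Genes named are members past the threshold, the largest others that moved 1.5-fold or more in the same direction throughout, and measured members of role lists; the rest are named to account for every member. The members and lists were chosen with earlier results of these data known.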

Additional observations from a re-analysis of the deposited data

Results flagged for a closer look

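CYP71B22 was looked at again because its response to IAA had an unadjusted p under 0.05 for a difference between arf6 arf8 and the other genotypes. The fitted difference of the log2 response was -0.853 ± 0.220 (SE; limma, adjusted p = 0.405), so it did not pass over all probe sets. With IAA the gene was 0.867 of untreated in arf6 arf8, 1.41-fold higher in arf6/arf6 ARF8/arf8 and 1.74-fold higher in wild type. No probe set passed this test (limma, smallest adjusted p = 0.405), and 1461 of 13021 had an unadjusted p under 0.05.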

How the results depend on the processing

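The count of members called in arf6 arf8 against wild type, 1 as reported, was 2 after quantile normalization or with the floor lowered to the 10th percentile, 0 with no filter, and 0 to 2 without single arrays. Over all probe sets 2112 of 12957 passed after quantile normalization and 2138 of 13021 with the lowered floor. Where the count was 2, the added member was CYP71B31, whose high wild-type untreated value was required by the filter. In arf6/arf6 ARF8/arf8 the count was 1 with an intensity trend or with the filter raised to the 70th percentile. The member was CYP71B6 in these 2 fits (limma, adjusted p = 0.0338 and 0.0435), where 822 of 13021 and 578 of 8340 probe sets passed. The count was 0 to 1 without single arrays. The member called on leaving out an array was again CYP71B31. For IAA the count of 1 was 0 with no filter, with mock and untreated as 1 control and against mock, and 0 to 1 without single arrays. Over all probe sets 2 of 13021 passed with mock and untreated as 1 control and 23 against mock. For mock the count of 0 was 1 with an intensity trend, where 30 of 13021 probe sets passed, and 0 to 2 without single arrays. It was also 1 with no filter, where 906 of 22746 passed, through CYP71B16, which is untested otherwise. CYP71B16 exceeded the floor on the mock array alone (76.4), so its other arrays were set to the same value and had no spread. Its log2 difference of 0.235 ± 0.007 (SE) is therefore no test of the gene. With no filter 22 members were tested among 22746 probe sets. Limma then called 0 probe sets for IAA, with 2429 at an unadjusted p under 0.05, and 2 for arf6 arf8 against wild type. A call lost in that fit therefore says little about a member. Over all alternatives the number of probe sets called was 2 to 2833 for arf6 arf8 against wild type (2227 as reported), 1 to 822 for arf6/arf6 ARF8/arf8 (360), 0 to 388 between the mutants (163), 0 to 380 for IAA (141), 0 to 906 for mock (98) and 0 to 844 for IAA against mock (23).

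Against mock in place of untreated, the IAA difference was 0.059 for CYP71B26, -0.102 for CYP71B22 and -0.240 for CYP71B6. The mock difference of CYP71B34 was -0.10 after quantile normalization. Without single arrays, these uncalled differences crossed 0: arf6 arf8 against wild type -0.155 to 0.698 for CYP71B22; arf6/arf6 ARF8/arf8 against wild type -0.164 to 0.277 for CYP71B26; between the mutants -0.778 to 0.075 for CYP71B22, -0.700 to 0.349 for CYP71B31 and -0.100 to 0.210 for CYP71B34; and for mock -0.238 to 0.082 for CYP71B28, -1.154 to 0.416 for CYP71B31 and -0.207 to 0.166 for CYP71B34. The cause was not tested. CYP71B6 stayed higher in arf6 arf8 without any single array (0.819 to 1.114), and CYP71B26 lower with IAA (-1.335 to -1.109). The matching pairs of arrays already shared these signs, so the ranges describe size and add no separate test. A genotype left with 1 array is assumed to vary like the others, and leaving out the mock array gives no mock value. Leaving out the wild-type untreated array sets mock against an untreated level inferred from the wild-type IAA array and the mutants. No paired analysis was possible because each group has 1 array and the labels give no replicate numbers; the genotype term of the model already sets IAA against untreated within each genotype. Signals near the floor limit CYP71B31 and the 16 dim members.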
